A study of Mus musculus with 6 samples.

Results

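The cytosolic ribosomal protein genes are the genes for the proteins of the large and the small subunit of the ribosome that works in the cytoplasm. They were taken from the count table by their mouse symbols, as Rpl or Rps followed by a number with at most a letter and a further number, together with Rplp0, Rplp1, Rplp2 and Rpsa. This gave 85 of 25239 genes, 52 of the large and 33 of the small subunit. Of these, 83 are annotated as protein coding and 2, Rpl32l and Rps4l, as pseudogenes. The rule left out 4 ribosomal protein genes with other kinds of names (Fau, Rack1 and Rpl36al among them), which are described separately where reported, and all pseudogenes with a suffix such as -ps.

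The 6 libraries came from germinal vesicle oocytes of female CD-1 mice, an outbred strain, aged 4 to 6 weeks. In all 6, cumulus-oocyte complexes had been microinjected, cultured in maturation medium with follicle-stimulating hormone and serum, and collected while the oocyte nucleus was intact. In 3 libraries the injected fluid was water, and in 3 it was a mixture of phthalate metabolites, the products of plasticizers in the body, whose components and dose the labels do not name. The comparison asks how the level of each messenger RNA differs between them. The titles number the libraries of a group without naming an animal or a culture, so each group counted as 1 sample. The protocol can also be read as 1 oocyte for each group, in which case the libraries of a group would be technical repeats. Each library is called an oocyte here after its title, and the spread between libraries may be technical. No difference has been tested against the spread between animals, and the values of single libraries are given for the genes the results turn on.

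A ribosome carries 1 copy of nearly every ribosomal protein, so the proteins of the large and the small subunit are needed in equal number. The proteins surround the ribosomal RNA, line the tunnel through which the new peptide leaves, hold the messenger RNA and recruit translation factors. Their messenger RNAs are known for a terminal oligopyrimidine tract, a C at the cap followed by a run of C and T, through which mTOR signalling and the binding protein Larp1 control their translation. Growing oocytes store ribosomes and messenger RNA for the egg and early embryo, which translate before the embryonic genome is active.

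The tract is shown first because it is the sequence feature these messenger RNAs are known for. The RefSeq promoter table of GRCm38.p6 held 64 of the 85 genes, and 14 of them (21.9%) had an annotated start that was a C followed by at least 3 further pyrimidines, against 4.49% of 27025 genes in that table. The shares were 20% of 40 large subunit genes and 25% of 24 small subunit genes. With a start anywhere within 5 bases of the annotated base, they were 50.0% of the 64 genes and 34.4% of all genes. These shares depend on which base is annotated as the start, so a gene without the run here is not shown to lack the tract. The following windows run from 15 bases before to 25 bases from the annotated start, on the strand of the gene. They show 4 genes with the run at that start and 2 without it there. Capitals mark the pyrimidine run.
Rpl35, chr2:39005107-39005146, minus strand: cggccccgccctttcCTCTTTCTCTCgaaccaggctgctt
Rpl35a, chr16:33056467-33056506, plus strand: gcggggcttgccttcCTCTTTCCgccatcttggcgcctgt
Rpl15, chr14:18270962-18271001, minus strand: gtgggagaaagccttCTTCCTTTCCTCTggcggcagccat
Rps10, chr17:27635220-27635259, minus strand: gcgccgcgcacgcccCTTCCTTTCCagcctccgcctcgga
Rpl22, chr4:152324421-152324460, plus strand: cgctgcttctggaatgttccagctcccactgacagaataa
Rpl41, chr10:128549144-128549183, minus strand: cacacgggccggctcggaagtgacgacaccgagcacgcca
The genes shown were picked from those named for their ratio or level, and whether the run goes with the ratio between groups was not tested. Rpl35a has 3 annotated starts and Rpl22 has 2, and for Rpl22 neither has the run. Within 250 bases before to 50 after a start, searched on both strands, the ETS family motif CCGGAAG was present in 40.6% of the 64 genes and 9.93% of all genes. The YY1 motif AAGATGGC was present in 9.38% and 3.19%, and TATAAA in 12.5% and 15.7%.

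Depth was low and similar, with 252267 to 300917 gene counts per library. Phthalate oocyte 3 stood apart, with a chi-square per degree of freedom of 2.34 and 1.86 against the other phthalate libraries, while the other pairs within a group had 1.15 to 1.44. Of 8 oocyte markers, 7 had counts in every library, and Figla had 0 in phthalate oocyte 1. Of 20 cumulus and granulosa markers, 9 were at 0 in all libraries, among them Amh and Foxl2, and the summed level of all 20 was 13 to 39 counts in a water oocyte and 10 to 27 in a phthalate oocyte. Nr5a2 held 64 of 75 of these counts in water and 39 of 56 in phthalate, and without it the sums were 0 to 7 in water and 2 to 12 in phthalate. Their part in the results below was not tested.

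Ribosomal protein genes took a slightly larger share of counts in the phthalate group, with 1 water oocyte as high as the phthalate oocytes. Water oocytes 1, 2 and 3 had shares of 3.10%, 2.82% and 2.79%, and phthalate oocytes 1, 2 and 3 had 3.07%, 3.16% and 3.05%. Water oocytes 2 and 3 lay below all phthalate oocytes, while water oocyte 1 lay inside the phthalate range, so the groups overlapped. Over the summed counts the share was 2.90% in water (95% exact interval 2.86 to 2.93) and 3.10% in phthalate (3.06 to 3.13), a ratio of 1.07 (1.05 to 1.09). These intervals cover counting error only. Leaving out water oocyte 1 gave a ratio of 1.10, leaving out water oocyte 3 gave 1.05, and leaving out phthalate oocyte 3 gave 1.08. The ribosomal RNA precursor Rn45s took 2.02% to 2.35% of counts in water and 2.89% to 3.54% in phthalate, and with Rn45s left out of the totals the ratio was 1.08.

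**Figure D1:**
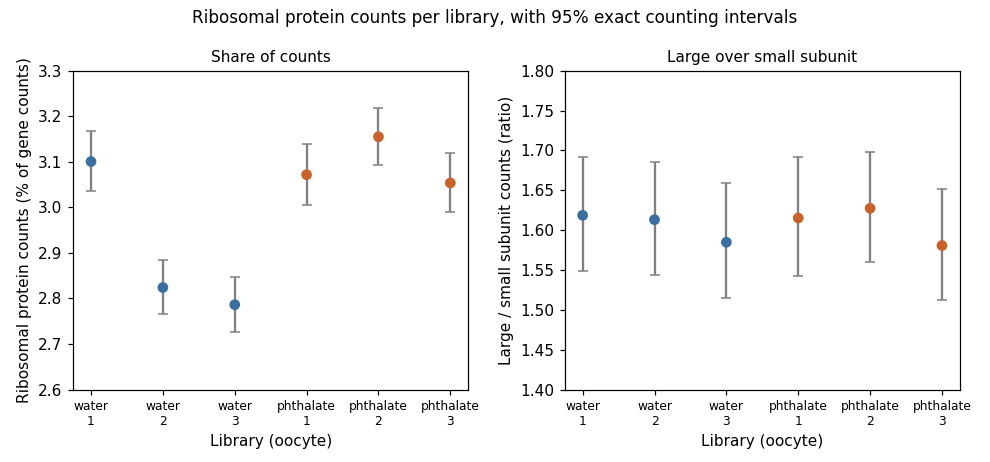
Share of gene counts in the 85 ribosomal protein genes (left, percent) and counts of large over small subunit genes (right, ratio) for each oocyte, with water in blue and phthalate in orange. Points are single libraries and bars are 95% exact counting intervals. Water 1 (3.10%) lies among the phthalate oocytes (3.05% to 3.16%), and the ratio on the right lies between 1.58 and 1.63 in all 6 oocytes.

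The ratio was the same for both subunits. Large subunit genes took 1.79% of counts in water and 1.91% in phthalate, a ratio of 1.07 (1.04 to 1.09). Small subunit genes took 1.11% and 1.19%, a ratio of 1.07 (1.04 to 1.10). The number of large subunit counts per small subunit count was 1.62, 1.61 and 1.58 in water and 1.62, 1.63 and 1.58 in phthalate. The 2 sets of values covered nearly the same range, from 1.58 to 1.63. The group values were both 1.61, with a ratio of 1.00 between them. An approximate interval of that ratio, for counting error only, ran from 0.966 to 1.04. With the counting variance doubled to allow for read pairs it ran from 0.952 to 1.05.

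Levels are compared between genes per length, as CPM (counts divided by the total of the library and scaled to a fixed total) per kilobase of the median annotated transcript. Of the 85 genes, 82 had a count in some library, 75 passed the filter on low counts and 68 had mean counts of at least 20 per library. Among these 68 the highest level was 81.1 times the lowest, and the 90th percentile was 7.56 times the 10th. The median level was 443 CPM per kilobase for 40 large subunit genes and 519 for 28 small subunit genes. With the longest annotated transcript in place of the median one, the large subunit median was the higher one, by 1.22 times. The 5 genes with the most counts held 23.1% of all counts of the group, and the first 10 held 36.0%.

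**Figure D2:**
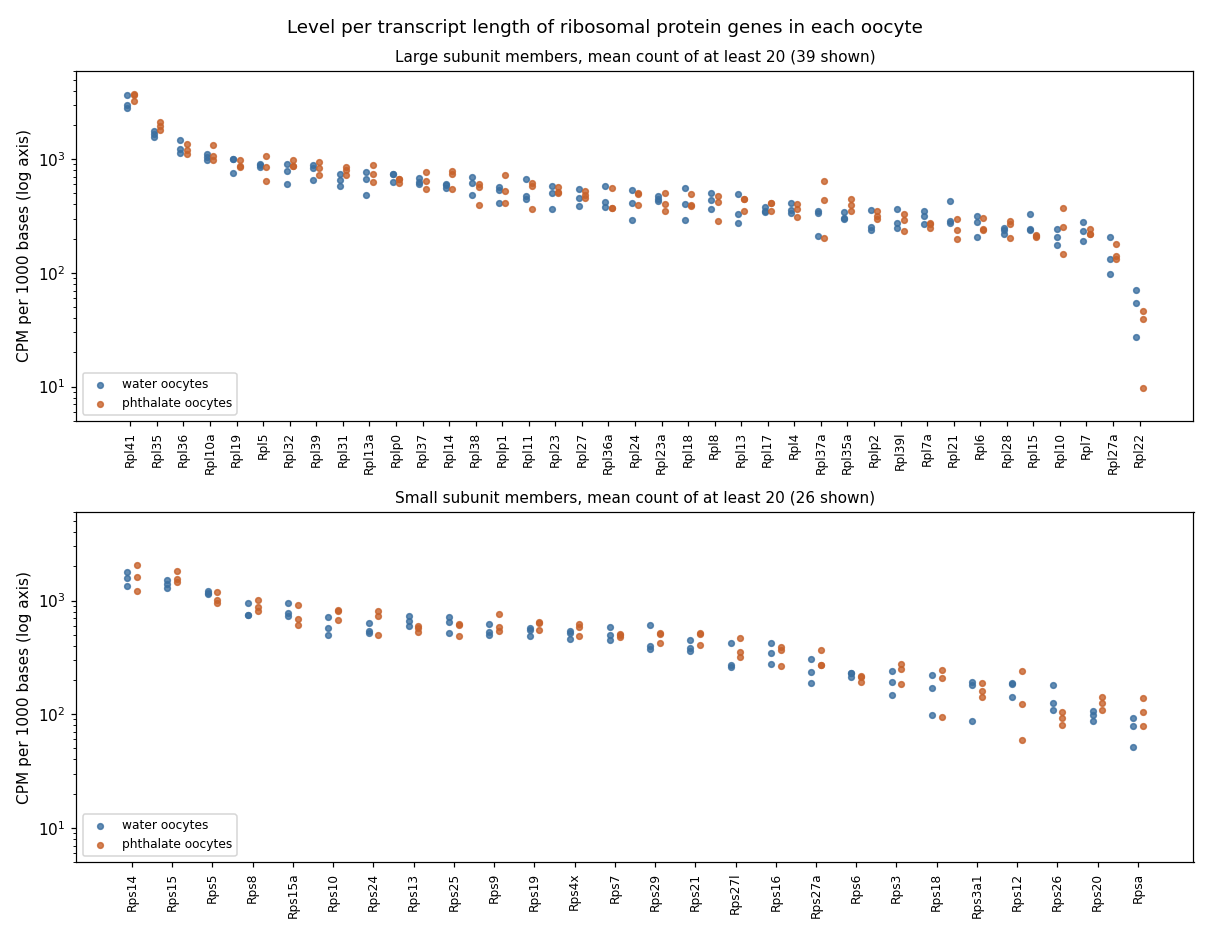
Level in CPM per kilobase (log axis) of 39 of the 40 large subunit genes (top) and 26 of the 28 small subunit genes (bottom) with mean counts of at least 20, ordered by mean level. Each point is 1 oocyte, with water in blue and phthalate in orange. Rpl41 leads with a mean of 3352 and Rpl22 is last with 41.3, and for most genes the oocytes of both groups lie together.

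Rpl41, which encodes the shortest ribosomal protein, had the highest level of the large subunit, with a mean of 3352 CPM per kilobase (SD 396 over 6 libraries). Its counts were 518, 443 and 447 in the water libraries against 435, 584 and 527 in the phthalate libraries. In CPM the lowest were water oocyte 2 with 1472 and water oocyte 3 with 1575, and the groups overlapped. Per coding length, which is 75 bases for Rpl41, its lead was larger still, at 23534 CPM per kilobase. Rpl35, which sits at the exit of the peptide tunnel, had 1817 CPM per kilobase (SD 208), and Rpl36 had 1255 (SD 142). These 3 levels lay further apart than their SDs.

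Of the 28 small subunit genes with mean counts of at least 20, Rps14 led with 1594 CPM per kilobase (SD 304), and Rps15, also among the highest, had 1504 (SD 175). The difference between Rps14 and Rps15 was smaller than the SD of either. Among these 28 small subunit genes the lowest levels were those of Rpsa with 90.9 (SD 29.5), Rps20 with 111 (SD 19.7) and Rps26 with 115 (SD 35.3). Rps20 owes its place to its annotation, which holds 1 protein-coding transcript of 3706 bases. By coding length it ranked 21 of 68, and by transcript length 66. Among the 40 large subunit genes with such counts the lowest were Rpl22 with 41.3 (SD 21.2), Rpl27a with 147 (SD 38.2) and Rpl7 with 231 (SD 30.6). The median transcripts of Rpl22, Rpl27a and Rpsa have 2048, 1158 and 1768.5 bases, for coding lengths of 384, 444 and 885. The low places of these genes may thus also depend on the length used.

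The order of levels was alike in all libraries. Spearman's rho between the 68 levels in a library and their mean over the other libraries lay between 0.959 and 0.975, a description across genes that share library depth and transcript lengths. The oocytes differed more in the height of the whole group. The median log2 deviation of the 68 genes from their mean over libraries was 0.09, -0.08 and -0.14 in water and 0.02, 0.02 and -0.01 in phthalate. The same median over 2784 genes was 0.02, -0.03 and -0.02 in water and 0.02, 0.02 and -0.09 in phthalate. Of the 68 genes, 45 lay above their own mean in water oocyte 1, 19 in water oocyte 2 and 20 in water oocyte 3, against 37, 35 and 33 in the phthalate oocytes. By this median water oocyte 1 was the highest and water oocytes 2 and 3 the lowest. Relative to the median over all genes, phthalate oocyte 3 was the highest, at 0.08, next to water oocyte 1 at 0.07.

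**Figure D3:**
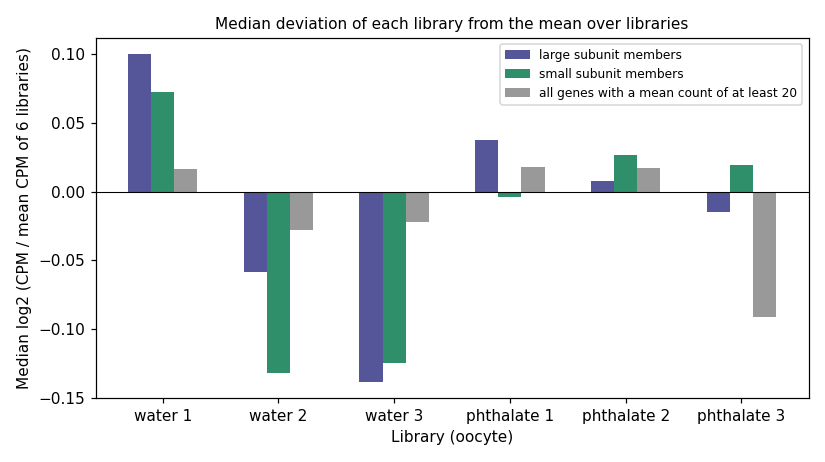
Median log2 of CPM over the mean CPM of the 6 libraries, for large subunit genes (n = 40, violet), small subunit genes (n = 28, green) and all 2784 genes whose mean count was at least 20 (grey), by oocyte. Bars start at 0. Both subunits are above 0 in water 1 and below it in water 2 and water 3, and phthalate 3 is the oocyte where all genes are lowest.

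Most ribosomal protein genes had a slightly higher level in phthalate than in water. The median log2 ratio over the 75 genes that passed the filter was 0.12 (quartiles -0.04 and 0.26), against 0.01 over all 4644 genes that passed. A ratio above 1 was found for 49 of the 75 genes (65.3%), against 51.2% of all genes. Without phthalate oocyte 3 the median was 0.06, against -0.02 over all genes. The oocyte markers lay on the other side, with a median of -0.12 and 6 of 8 lower in phthalate, and their part in the ratios was not tested. The lowest were Zp2 at -0.33 (-0.44 to -0.21) and Bmp15 at -0.29 (-0.43 to -0.16), and the groups of both overlapped. Nlrp5, at -0.18 (-0.35 to -0.02), was the 1 marker with groups that did not overlap over library totals. They overlapped with totals scaled by TMM or DESeq2 factors. Gdf9 was at -0.06, and on the higher side Zp1 was at 0.02 and Zp3 at 0.05. Leaving out 1 oocyte gave Zp2 between -0.16 (phthalate oocyte 1) and -0.65 (phthalate oocyte 3, the highest of all in CPM), and Bmp15 had -0.15 without phthalate oocyte 1 and -0.50 without phthalate oocyte 3. For the ribosomal protein genes the median was 0.08 in the large subunit, with 26 of 43 genes higher in phthalate, and 0.19 in the small subunit, with 23 of 32 higher. The difference of these medians, large minus small, was -0.11, and without phthalate oocyte 3 it was -0.01.

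Few genes lay past a 1.5-fold ratio. In phthalate 4 of 75 were at least 1.5-fold higher, against a background of 6.96% of all genes, and 1 was at least 1.5-fold lower, against 8.14%. The remaining 70 lay within 1.5-fold. The 4 higher genes had mean counts under 20, and among the 68 genes above that count 0 were 1.5-fold higher (background 4.02%) and 1 was lower (background 4.09%). The 3 values of a group lay wholly above those of the other group for 6 genes higher in phthalate (background 4.52%) and 3 lower (background 5.49%). With the mean count of at least 20 the numbers were 4 (background 4.42%) and 3 (background 5.64%). Among the genes were Rpl35, Rpl35a, Rpl7l1, Rps20 and Rps28 on the higher side, and Rpl15, Rps13 and Rps26 on the lower. With totals scaled by TMM or DESeq2 factors, Rpl35 and Rps13 overlapped and Rps23 was separate on the higher side.

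**Figure D4:**
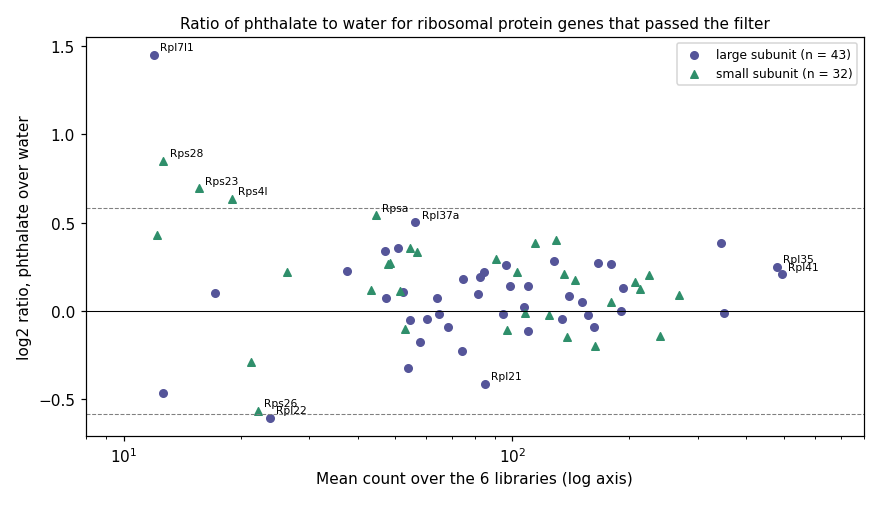
Log2 ratio of phthalate over water for the 75 genes that passed the filter, against the mean count over 6 libraries (log axis). Circles are large subunit genes (n = 43), triangles small subunit genes (n = 32), and dashed lines mark 1.5-fold. The 4 genes above the upper line (Rpl7l1, Rps28, Rps23 and Rps4l) have mean counts under 20, and Rpl22 is the gene below the lower line.

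In the large subunit, 4 of 43 genes (9.30%, against 4.52% of all genes) were higher in phthalate with groups that did not overlap, Rpl35 (chr2:39001581-39005131) and Rpl35a among them, and 1 (2.33%, against 5.49%) was lower. Rpl35 had 429, 502 and 417 counts in water and 511, 503 and 509 in phthalate, a log2 ratio of 0.25 (0.14 to 0.35). Its raw counts nearly met, at 502 and 503, and the groups were separate in CPM over library totals but overlapped with totals scaled by TMM or DESeq2 factors. Rpl35a, which is mutated in some patients with Diamond-Blackfan anaemia, had 47, 46 and 44 counts against 58, 53 and 56, a log2 ratio of 0.36 (0.02 to 0.69). With each read pair counted once, the interval of Rpl35a ran from -0.12 to 0.84 and that of Rpl35 from 0.10 to 0.40.

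Rpl37a, which encodes a small protein with a zinc finger, had the largest log2 ratio among the 40 large subunit genes with mean counts of at least 20, at 0.50 (0.18 to 0.82). Its counts were 32, 59 and 53 in water and 91, 72 and 31 in phthalate. Phthalate oocyte 3 held the lowest count of all and phthalate oocyte 1 the highest, and the ratio was 0.13 without phthalate oocyte 1 and 0.79 without phthalate oocyte 3. Rpl41, with the highest level, had a log2 ratio of 0.21 (0.10 to 0.31).

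On the other side, Rpl22 (chr4:152324436-152334082), an RNA-binding protein that T cell development needs in mice, had 30, 17 and 41 counts in water and 5, 24 and 26 in phthalate. Phthalate oocyte 1 was far below the rest and the other phthalate oocytes lay inside the water range. The log2 ratio was -0.61 (-1.12 to -0.10), or -1.35 to 0.10 with each read pair counted once. It was -0.20 without phthalate oocyte 1, -0.28 without water oocyte 3 and -0.57 without water oocyte 1, all within 1.5-fold. Without water oocyte 2, phthalate oocyte 2 or phthalate oocyte 3 it was -0.91, -0.77 and -0.99. Rpl21 had 123, 91 and 84 counts against 81, 62 and 70, a log2 ratio of -0.41 (-0.67 to -0.15), with phthalate oocyte 1 above the lower water oocytes in CPM. The ratio of Rpl21 was -0.21 without water oocyte 1 and -0.24 without phthalate oocyte 2. Rpl15, another gene of Diamond-Blackfan anaemia, had 72, 57 and 55 counts against 42, 51 and 47, a log2 ratio of -0.32 (-0.65 to 0.00), or -0.17 without water oocyte 1, and its groups did not overlap. Rpl15 and Rpl35a, both shown above with the run, were named for their ratios, and the part of the tract in these was not tested.

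Rpl5 and Rpl11, which bind Mdm2 together with a small ribosomal RNA when ribosome assembly is disturbed, had log2 ratios of -0.01 (-0.14 to 0.11) and 0.02 (-0.20 to 0.25). Rpl5 had 329, 393 and 361 counts in water and 236, 364 and 422 in phthalate, with phthalate oocyte 1 the lowest and phthalate oocyte 3 the highest. Rpl11 had 131, 104 and 92 counts in water and 67, 126 and 123 in phthalate, so phthalate oocyte 1 was the lowest and the groups overlapped. Of the stalk proteins, which recruit elongation factors, Rplp0 had 144, 191 and 179 counts against 145, 169 and 144, a log2 ratio of -0.09 (-0.28 to 0.09). Rplp1 had 76, 81 and 58 against 52, 108 and 72, a log2 ratio of 0.18 (-0.09 to 0.46). Leaving out 1 oocyte gave Rplp1 between -0.06 (phthalate oocyte 2) and 0.36 (phthalate oocyte 1). Rplp2 had 43, 32 and 32 against 34, 42 and 43, a log2 ratio of 0.23 (-0.16 to 0.62), and all 3 had groups that overlapped. These 5 genes were chosen for their roles, after their values were seen.

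Among the 28 small subunit genes with mean counts of at least 20, Rpsa, also known as a laminin receptor, had the largest log2 ratio, at 0.54 (0.18 to 0.90). Its counts were 44, 42 and 26 in water and 62, 55 and 38 in phthalate. Water oocyte 3 was lowest, and phthalate oocyte 3 lay below water oocytes 1 and 2, so the groups overlapped. The ratio of Rpsa was 0.34 without water oocyte 3 and 0.35 without phthalate oocyte 1. Rps10 and Rps20 are sites where ubiquitin is attached on stalled ribosomes. Rps10 had 131, 118 and 96 counts against 116, 163 and 155, a log2 ratio of 0.40 (0.20 to 0.61), with phthalate oocyte 1 inside the water range. Rps20 (chr4:3831584-3835655) had 107, 97 and 103 counts against 133, 137 and 111, a log2 ratio of 0.38 (0.16 to 0.60), and its groups did not overlap.

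Rps26, which lies where the messenger RNA leaves the small subunit, had the lowest log2 ratio of the same 28 genes, at -0.57 (-1.10 to -0.05), or -1.32 to 0.17 with each read pair counted once. Without water oocyte 2 it was -0.30, and Rps12, at -0.41, was then lower. Its counts were 23, 37 and 21 in water and 16, 21 and 15 in phthalate. The groups touched in counts, at 21, and were separate in CPM. Rps12 had 25, 21 and 26 counts against 30, 18 and 8, a log2 ratio of -0.29 (-0.82 to 0.23). It was highest in phthalate oocyte 1 and lowest in phthalate oocyte 3, so its ratio was -0.85 without phthalate oocyte 1 and 0.03 without phthalate oocyte 3. Rps13 had 186, 171 and 179 counts against 126, 167 and 151, a log2 ratio of -0.20 (-0.38 to -0.02), or -0.46 to 0.06 with each read pair counted once. Its groups did not overlap over library totals, but did with totals scaled by TMM or DESeq2 factors.

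Among the most abundant small subunit genes, the ratio of Rps14 turned on single oocytes. It had 289, 283 and 228 counts in water and 183, 363 and 264 in phthalate, so phthalate oocytes 1 and 2 were the lowest and the highest of all. Its log2 ratio was 0.09 (-0.05 to 0.23). Without phthalate oocyte 1 it was 0.27, without phthalate oocyte 2 it was -0.10, and without water oocyte 3 it was -0.0038. Rps15 had 694, 808 and 754 CPM in water and 971, 830 and 778 in phthalate, a log2 ratio of 0.20 (0.04 to 0.36), or -0.02 to 0.42 with read pairs counted once, and its groups overlapped. Rps6, the substrate of S6 kinase, had 54, 61 and 53 counts in water and 48, 50 and 51 in phthalate and a log2 ratio of -0.10 (-0.43 to 0.23). Its values lay close together in all 6 oocytes. Rps6 was chosen for its role, after its values were seen.

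The genes with the largest ratios of all had few counts. Rpl7l1 (chr17:46773907-46782656), a paralog of Rpl7, had 11, 5 and 4 counts in the water libraries against 17, 20 and 15 in the phthalate libraries. Every phthalate oocyte was above every water oocyte. The log2 ratio was 1.45 (0.68 to 2.27), or 0.31 to 2.53 with each read pair counted once. Rpl7 itself had 76, 70 and 54 counts against 55, 72 and 61, a log2 ratio of -0.02 (-0.31 to 0.28). Rps28 had 12, 8 and 8 counts against 15, 15 and 18 and a log2 ratio of 0.85 (0.15 to 1.58). Rps23, a protein of the decoding centre, had 15, 13 and 9 counts against 18, 25 and 14 and a log2 ratio of 0.70 (0.07 to 1.33). Rps28 and Rps23 were named after their values were seen, and with read pairs counted once the intervals of both include 0, from -0.09 to 1.97 and from -0.26 to 1.51. The ratio of Rps23 was under 1.5-fold without water oocyte 3 (0.52) or phthalate oocyte 2 (0.53), and Rpl7l1 had 2.04 without water oocyte 1.

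Several ribosomal proteins have a further gene, a paralog, that is known for expression in male germ cells. Rpl39, whose protein lines the peptide tunnel, is X-linked, and Rpl39l is its autosomal copy on chromosome 16. Their coding sequences are both 153 bases long, match at 85.0% of positions and differ at 23, and the longest identical run is 38 bases. They are printed because reads of the 2 genes can be told apart only where they differ. Capitals mark the differing bases.
Rpl39 coding sequence: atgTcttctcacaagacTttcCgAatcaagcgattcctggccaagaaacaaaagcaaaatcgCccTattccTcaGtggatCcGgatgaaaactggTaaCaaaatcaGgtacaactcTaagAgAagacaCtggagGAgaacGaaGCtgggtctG
Rpl39l coding sequence: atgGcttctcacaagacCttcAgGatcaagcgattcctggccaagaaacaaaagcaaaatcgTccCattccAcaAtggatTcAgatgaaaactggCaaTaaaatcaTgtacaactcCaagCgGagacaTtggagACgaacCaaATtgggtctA
For both, 100% of the 150-base windows of the transcript, the read length, were found in no other annotated gene. Rpl39 had 148, 155 and 115 counts in water and 147, 132 and 142 in phthalate. Rpl39l had 67, 51 and 53 against 56, 47 and 54, so each group held it at a similar height and the groups overlapped. The levels were 821 CPM per kilobase for Rpl39 and 291 for Rpl39l, and the log2 ratios 0.08 (-0.12 to 0.28) and -0.05 (-0.37 to 0.27).

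Of the other paralogs inside the naming rule, Rps4l, Rpl10l, Rpl22l1, Rpl32l, Rpl3l and Rpl7l1 had lower mean levels than the genes they resemble. Rps4l, an annotated pseudogene, had 78.8 CPM per kilobase against 534 for the X-linked Rps4x. Its counts were 19, 12 and 15 in water and 17, 27 and 24 in phthalate, with phthalate oocyte 1 inside the water range and a log2 ratio of 0.64 (0.08 to 1.21), or -0.17 to 1.43 with read pairs counted once. The ratio was under 1.5-fold without water oocyte 2 (0.46), phthalate oocyte 2 (0.57) or phthalate oocyte 3 (0.55). Rpl10l, the autosomal copy of X-linked Rpl10, had 2 counts in water oocyte 1, 2 in phthalate oocyte 2 and 0 elsewhere, a level of 2.31 CPM per kilobase against 232 for Rpl10. Rpl22l1 had 8, 3 and 0 counts against 1, 2 and 8, and Rpl32l 0, 2 and 0 against 0, 4 and 2. Rpl3l, a gene of skeletal and heart muscle, was at 0 in all 6 libraries. The 4 X-linked genes Rpl10, Rpl36a, Rpl39 and Rps4x together had 1155 counts in water and 1200 in phthalate.

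Rps27l, which p53 is known to induce, had 57, 41 and 37 counts in water and 44, 47 and 64 in phthalate, a log2 ratio of 0.27 (-0.07 to 0.62) with overlapping groups. It was 0.04 without phthalate oocyte 3, 0.16 without water oocyte 3 and 0.50 without water oocyte 1. Rps27 itself was listed at 0 in every library. A count of 0 over the 6 libraries allows up to 1.79 CPM (3 counts). Of the 150-base windows of its transcript, 2.04% were found in no other gene. Its coding sequence of 252 bases is identical to that of Rps27rt, an annotated copy that was also at 0, so a read from within it matches both equally well. No base differs, and so none is in capitals.
Rps27 coding sequence: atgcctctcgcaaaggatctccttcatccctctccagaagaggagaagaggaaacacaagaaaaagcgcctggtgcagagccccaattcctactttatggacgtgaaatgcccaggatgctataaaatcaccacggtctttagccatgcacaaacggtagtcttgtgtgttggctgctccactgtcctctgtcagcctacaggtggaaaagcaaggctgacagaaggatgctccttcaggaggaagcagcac

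The share of sequence in common with other genes varied widely. Of the 85 genes, 69 share at least 1 window of 150 bases with another annotated gene, mostly a pseudogene. Rpl26 was at 0 in all libraries with 91.2% of its windows its own, or 42.5% of windows of 75 bases. Rpl30, with 75.5% (59.9% at 75 bases), had 1 count in all, and Rpl34, with 92.4% (69.5% at 75 bases), had 6, 9 and 3 counts in water and 3, 8 and 5 in phthalate. Rpl9 had 7 counts in the water group and 5 in phthalate, and Rpl29 had 5 and 3. At the other end, Rpl10a reached 1084 CPM per kilobase with 29.1% of windows its own. The median level was 382 CPM per kilobase for 18 genes with under 50% of windows their own, 346 for 25 genes between 50% and 75%, 518 for 16 genes between 75% and 90%, and 353 for 26 genes above 90%. Spearman's rho between the share of own windows and the level was -0.0015 over the 85 genes, as a description. How reads that match several genes were counted is not given in the sources used here, so levels of genes with many copies, such as Rps2 and Rpl21 with windows in 22 and 20 other genes, are uncertain.

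**Figure D5:**
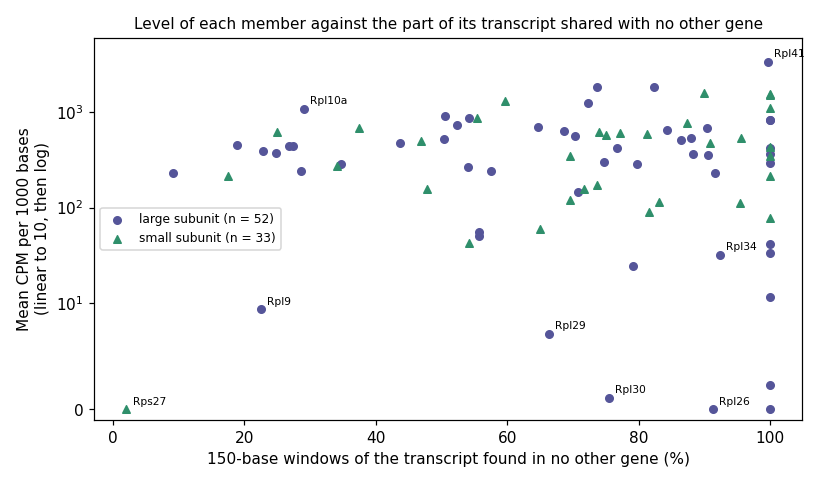
Mean CPM per kilobase (linear to 10, then log) of each of the 85 genes against the percent of 150-base windows of its transcript that occur in no other annotated gene. Circles are large and triangles small subunit genes. Rps27 stands alone at the lower left with 2.04%, while Rpl26 and Rpl30 are near 0 at 91.2% and 75.5%, and levels elsewhere show no trend along the axis.

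The ratio between groups did not differ much by this measure. In the 35 genes that passed the filter with at least 75% of windows their own, the median log2 ratio was 0.14 and 24 were higher in phthalate. In the 40 genes below 75% it was 0.10, and 25 were higher. Exons of 38 of the 85 genes overlap another gene, in 25 cases a small nucleolar RNA or a microRNA and in 15 another protein-coding gene. The use of strand is not known, so reads of such partners cannot be told apart. The 15 that overlap a protein-coding gene had a median log2 ratio of 0.22, Rpl35 and Rpl15 among them.

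Of the ribosomal protein genes outside the naming rule, 3 are described here. Fau, which encodes a ubiquitin-like protein fused to a small subunit protein, had 327, 297 and 253 counts in water and 269, 326 and 288 in phthalate, a log2 ratio of 0.08 (-0.05 to 0.22). Rps27a, which is inside the rule and encodes ubiquitin fused to a small subunit protein, had 59, 51 and 38 counts against 49, 78 and 53 and a log2 ratio of 0.35 (0.03 to 0.68), or -0.11 to 0.81 with read pairs counted once, with overlapping groups. Leaving out 1 oocyte gave 0.20 (phthalate oocyte 2) to 0.52 (water oocyte 1). Rpl36al, the autosomal copy of Rpl36a, had 163, 174 and 168 counts against 166, 244 and 143 and a log2 ratio of 0.20 (0.03 to 0.38), or 0.03 without phthalate oocyte 2. Rpl36a had 76, 55 and 58 counts against 45, 80 and 49, fewer than Rpl36al in every library. The mean levels were 448 CPM per kilobase for Rpl36a and 832 for Rpl36al. Of the 150-base windows, 18.9% for Rpl36a and 66.9% for Rpl36al were found in no other gene. How reads matching several genes were counted is not known, so the 2 levels may not be comparable. Rack1, a signalling scaffold on the small subunit, had 27, 46 and 30 counts against 34, 36 and 73. Its log2 ratio of 0.55 (0.17 to 0.93) rested on phthalate oocyte 3, without which it was 0.05, and the other phthalate oocytes lay inside the water range in CPM.

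Other genes with a terminal oligopyrimidine tract, mostly translation factors, showed ratios on both sides. Of 15 such genes 12 passed the filter, 8 were higher (66.7%, against 51.2% of all genes) and 4 lower in phthalate, and the median log2 ratio was 0.17. At least 1.5-fold higher was 1 gene and lower 1, or 8.33% each, near the 6.96% and 8.14% of all genes. Eif3e, a subunit of an initiation factor, was the higher one, with 15, 16 and 16 counts in water and 32, 22 and 19 in phthalate and a log2 ratio of 0.71 (0.16 to 1.27), or 0.42 without phthalate oocyte 1. Pabpc1, the poly(A)-binding protein, was the lower one, with 18, 6 and 12 counts against 13, 6 and 0 and a log2 ratio of -0.85 (-1.73 to -0.01). It was within 1.5-fold without phthalate oocyte 3 (-0.31) or water oocyte 1 (-0.41), and the other phthalate oocytes lay inside the water range. Eef1d, of the elongation factor complex, had 145, 155 and 111 counts in water and 170, 211 and 172 in phthalate, a log2 ratio of 0.50 (0.31 to 0.69), and its groups did not overlap. Of the 12 genes, the groups were separate for 2 on the higher side, Eef1d and Eif3e, and for 2 on the lower side, Tpt1 and Npm1, or 16.7% each against 4.52% and 5.49% of all genes. Tpt1 had 48, 50 and 54 counts against 37, 44 and 35, a log2 ratio of -0.32 (-0.68 to 0.04). Npm1 had 145, 178 and 159 against 133, 154 and 137, a log2 ratio of -0.11 (-0.30 to 0.08), and overlapped with totals scaled by TMM or DESeq2 factors. Eef1a1, which brings transfer RNA to the ribosome, had 388, 490 and 389 counts against 248, 283 and 460 and a log2 ratio of -0.28 (-0.40 to -0.16). Phthalate oocytes 1 and 2 were lowest, and phthalate oocyte 3 was above every water oocyte in CPM. Leaving out 1 oocyte moved the ratio of Eef1a1 to between -0.10 (phthalate oocyte 2) and -0.64 (phthalate oocyte 3).

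Of 7 genes for proteins that bind such messenger RNAs, 3 passed the filter. Larp4 had 10, 22 and 12 counts in water and 25, 20 and 21 in phthalate, a log2 ratio of 0.66 (0.09 to 1.24), with phthalate oocyte 2 below water oocyte 2 in CPM. It was within 1.5-fold without water oocyte 1 (0.47), water oocyte 3 (0.54) or phthalate oocyte 1 (0.52). Larp4b had 44, 36 and 39 counts against 48, 31 and 31, a log2 ratio of -0.04 (-0.43 to 0.34). Cnbp had 54, 65 and 63 against 31, 66 and 86, a log2 ratio of 0.08 (-0.22 to 0.38), with phthalate oocyte 1 lowest and phthalate oocyte 3 highest. Leaving out 1 oocyte gave -0.30 to 0.36 for Cnbp and -0.32 to 0.15 for Larp4b. Larp1, the main regulator of the tract, had 7 counts in water and 6 in phthalate, too few for a comparison at this depth.

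Ribosome assembly factors, which process ribosomal RNA and fit the proteins onto it, had a median log2 ratio of 0.08. Of the 93 genes listed there, 64 passed the filter, and 39 were higher (60.9%, against 51.2% of all genes) and 25 lower in phthalate. At least 1.5-fold higher were 5 and lower 6, or 7.81% and 9.38% against backgrounds of 6.96% and 8.14%. Eif6, which keeps the large subunit from joining too early, had 445, 387 and 426 counts against 427, 534 and 446, a log2 ratio of 0.23 (0.12 to 0.34). Its groups overlapped, and leaving out 1 oocyte gave 0.15 (water oocyte 2) to 0.30 (water oocyte 1). Riok1, a kinase of small subunit maturation, had 225, 278 and 233 counts against 349, 332 and 273, a log2 ratio of 0.45 (0.31 to 0.59), and every phthalate oocyte was above every water oocyte. Eif6 and Riok1, like the translation factors and binding proteins named before them, were picked out after their values were seen. The proteins of the mitochondrial ribosome, a separate set of genes, had a median log2 ratio of 0.09 over 58 genes that passed, with 34 higher (58.6%) and 24 lower. Nearness of these medians to that of the cytosolic set was not tested.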

How the data were processed

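The values of 6 Smart-seq3 libraries are raw read counts for each gene symbol, whole numbers as deposited by the authors. HISAT2, cutadapt, Trimmomatic, DESeq2 and the build mm10 are named, per the submitters' processing notes. The counting tool, annotation, use of strand and handling of molecular identifiers and of reads matching several genes are not given in the sources used here. The 92 ERCC spike-in RNAs were left out of totals.

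The genes and the lists were chosen with earlier results of these data known. Genes passed edgeR's filterByExpr (edgeR 4.0.16, R 4.3.3; minimum count 10, minimum total count 15). Counts were summed per group, divided by totals scaled with TMM factors and given as a log2 ratio with no pseudocount. A group sum of 0 was set to 3 counts. Intervals are exact (Clopper-Pearson, 95%), except that of the large to small ratio between groups, which is a normal approximation on the log scale. All cover counting error only, since PCR copies and mates are not independent. Even numbers made up 68.0% to 71.1% of the counts from 1 to 20 in a library, so for genes of the 85 an interval on counts halved to read pairs is added where it includes 0 and the first does not. For genes outside the 85 no such interval was made, and their intervals may be too narrow. Groups were called not overlapping on CPM over library totals. No pair of libraries was identical. Each group counted as 1 sample, so no test was run and p-values are not given. Precision is limited by 252267 to 300917 counts per library.

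Levels used the median length of protein-coding transcripts in GENCODE M21, where all 85 genes matched, and which includes incomplete transcripts. Start sites and promoter sequences are from RefSeq, GRCm38.p6, and gene positions are on the same build. Named genes were, with a mean count of at least 20, the 3 largest and 3 smallest ratios and the 4 highest and 3 lowest levels of each subunit, the paralogs, and the 4 genes outside the naming rule. Values of 4 of the genes so chosen are not reported here, and 3 are not drawn in the plot of levels. The alternatives were DESeq2 1.42.0 size factors, no TMM factors, no filter, a pseudocount of 2, means of CPM, other lengths, each library left out, and those added after seeing the data.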

Additional observations from a re-analysis of the deposited data

How the results depend on the processing

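Over the alternatives run, the median log2 ratio of the ribosomal protein genes stayed above 0, and leaving out 1 oocyte gave 0.06 to 0.16. The number of genes higher in phthalate was then 44 to 54 of 75. Without 1 oocyte the genes at least 1.5-fold higher numbered 2 to 6 (2.67% to 8%, against 7.60% to 9.41% of all genes) and those lower 1 to 3 (1.33% to 4%, against 8.46% to 10.5%), and the share ratio was 1.05 to 1.10. The large minus small subunit median was -0.16 to -0.0056. The large to small count ratio was 0.995 to 1.01, below 1 without water oocyte 3 (0.995), phthalate oocyte 1 (0.999) or phthalate oocyte 2 (0.995). Genes whose groups did not overlap numbered 7 to 20 on the higher and 4 to 8 on the lower side, since fewer oocytes overlap less often, and over all genes the shares were then 7.88% to 13.7% and 10.2% to 11.3%. The 20 were found without water oocyte 1 (26.7%, against 10.3% of all genes), and without water oocyte 3 there were 7 (9.33%, against 7.88%). Without a filter 6 genes were 1.5-fold higher and 2 lower, among 82 in place of 75 (7.32% and 2.44%, against 21.3% and 18.4% of all genes), and with a mean count of at least 20 none (0) was 1.5-fold higher. The longest transcript turned the level of the large over the small subunit median from 0.854 to 1.22. A start within 5 bases raised the share with a pyrimidine run from 21.9% to 50.0%. The alternatives chosen after seeing the data were read pairs, totals without Rn45s, TMM-scaled shares, overlaps with TMM or DESeq2 totals, and genes with 75% of windows their own. The last left 35 genes, with 24 higher (68.6%, against 51.2% of all genes) and 2 past the fold upward (5.71%, against 6.96%). Of these genes 4 had groups that did not overlap upward (11.4%, against 4.52%) and 1 downward (2.86%, against 5.49%).

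Pairing by replicate number gave medians of -0.05, 0.13 and 0.25 for numbers 1, 2 and 3, and a replicate block gave 0.13. Same-numbered oocytes deviated together with correlations of 0.06, 0.01 and 0.04, and nothing in the labels ties the numbers to an animal or a day, so the samples share only a number. Not every oocyte correlated best with its own number. Counts per gene limit the rest, as 68 of 85 genes had a mean count of at least 20.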

Other observations

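Some copies of ribosomal protein genes outside the naming rule were listed with counts, though reads of the parent gene may be among them. Rpl37rt, an intronless copy of Rpl37, had 470, 499 and 510 counts in the water libraries against 486, 561 and 485 in the phthalate libraries, while Rpl37 had 155, 153 and 149 against 135, 190 and 125. In every oocyte the copy held more counts than Rpl37. Per length its mean over the 6 libraries was 4408 CPM per kilobase, above Rpl41 at 3352, and 58.3% of its 150-base windows were found in no other gene. Rpl37rt had a log2 ratio of 0.12 (0.02 to 0.23) and Rpl37 of 0.05 (-0.14 to 0.24).

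Rpl14-ps1 had 72, 52 and 35 counts in water and 65, 76 and 61 in phthalate, and Rps18-ps4 had 41, 30 and 33 against 19, 35 and 41. Of the 11 copies outside the rule that were looked up, Rps27rt, Rpl34-ps1, Rplp2-ps1 and Rps19-ps3 were at 0 in all libraries. How the counting shared reads between these copies and their parent genes is not given in the sources used here.

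Among the 64 assembly factors that passed the filter, those at the ends of the order, chosen after their values were seen, were Heatr1 with 14, 12 and 8 counts in water and 27, 22 and 15 in phthalate (log2 ratio 0.98, interval 0.36 to 1.63) and Utp15 with 9, 14 and 22 against 2, 6 and 12 (-1.10, interval -1.94 to -0.31). Leaving out 1 oocyte gave -0.70 (phthalate oocyte 1) to -1.88 (phthalate oocyte 3) for Utp15. Both belong to the complex that assembles on the nascent small subunit RNA. Ltv1, of small subunit maturation, had 20, 35 and 28 counts against 10, 18 and 15 and a log2 ratio of -0.88 (-1.44 to -0.33), and its groups did not overlap.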
